A study of Mus musculus with 8 samples.

Results

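Hepatocyte identity transcription factors are the 9 genes Hnf4a, Foxa1, Foxa2, Foxa3, Cebpa, Onecut1, Prox1, Nr5a2 and Nr1h4, chosen by name as rows of the count table whose Ensembl identifier carries that symbol in the mouse annotation GENCODE M21. They make up 9 of the 55450 genes of the table, all 9 matched a row, and all 9 passed the filter on low counts. Whole-liver RNA of 8 ethanol-fed mice was sequenced. An adeno-associated virus (AAV) named for the long non-coding RNA H19 had been given to 4 of them (AAV-H19, livers 25 to 28), and AAV-Null to the other 4 (livers 21 to 24). The labels do not give strain, age, sex, viral dose, promoter or the content of the Null virus, and no group without ethanol or without virus was analysed here.

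Hepatocytes keep their identity through a small set of DNA-binding proteins that bind one another's genes as well as the genes of albumin, apolipoproteins, clotting factors and metabolic enzymes. HNF4A, a nuclear receptor, is a central regulator of the differentiated hepatocyte, the FOXA proteins are pioneer factors that open liver chromatin, and C/EBP alpha drives metabolic genes. ONECUT1 and PROX1 act in liver development and persist in the adult organ, while NR5A2 (LRH-1) and NR1H4 (FXR) control bile acid genes.

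The libraries held 63.7 M to 78.8 M count units in AAV-H19 and 78.3 M to 83.0 M in AAV-Null. H19 was at 104 to 155 CPM (counts scaled to library size) in AAV-H19 livers and 0.142 to 1.41 CPM in AAV-Null livers, so each library matched its label. All 10 hepatocyte markers passed the filter, led by albumin at 89095 CPM in AAV-H19 livers, against 71303 CPM in AAV-Null livers. Cps1 was higher and Asgr1, the asialoglycoprotein receptor subunit, lower (log2 fold change -0.90 ± 0.25, SE, edgeR adjusted p = 0.0493), a call that 6 of 8 fits without 1 library lost, the adjusted p reaching 0.147 without AAV-H19 27. The Asgr1 call was also lost with DESeq2 size factors (edgeR adjusted p = 0.0514), with no filter on low counts (0.0532), in limma-voom (adjusted p = 0.0542) and with an offset for transcript length (-0.51, edgeR adjusted p = 0.2) or for length and GC (-0.54, 0.162). Bile duct markers were low, with a summed level of 49.6 to 65.9 TPM (a level per transcript length) in AAV-H19 and 67.7 to 86.9 TPM in AAV-Null over 10 genes. Of the 9 tested, 6 had a positive fitted change (median 0.28), and the most abundant, Spp1, averaged 31.2 ± 2.69 CPM in AAV-H19 livers, against 46.8 ± 10.7 CPM in AAV-Null livers (SD, n = 4 each). Longer transcripts tended to be higher in AAV-H19 libraries: the rank correlation across genes between transcript length and a gene's deviation from its mean was 0.200 to 0.413 in AAV-H19 and -0.384 to -0.104 in AAV-Null. Across the table, 5.6% of 16672 genes tested were called higher and 6.07% lower in AAV-H19, by edgeR's quasi-likelihood test at a Benjamini-Hochberg adjusted p under 0.05. Of the genes called, 48% were higher, against 29.6% under upper-quartile scaling and 63.7% once transcript length was accounted for, as described later.

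Of the 9 factors, Hnf4a and Prox1 were higher in AAV-H19 livers, none was lower, and 7 did not pass the test. None was lower at an unadjusted p under 0.05 either, nor in DESeq2 or limma-voom, while 3 were higher at an unadjusted p under 0.05, a level that 29.8% of all genes tested reached in either direction. In 3 factors, Hnf4a, Prox1 and Onecut1, every AAV-H19 liver lay above every AAV-Null liver, a separation found upwards in 12.1% of all genes tested. The fitted change was positive for 6 of the 9, as for 48.9% of all genes tested. The median log2 fold change of the 9 factors was 0.16, against -0.02 for all genes tested. The 3 paralogs Foxa1, Foxa2 and Foxa3, and Cebpa, Nr5a2 and Nr1h4, had overlapping groups.

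**Figure D1:**
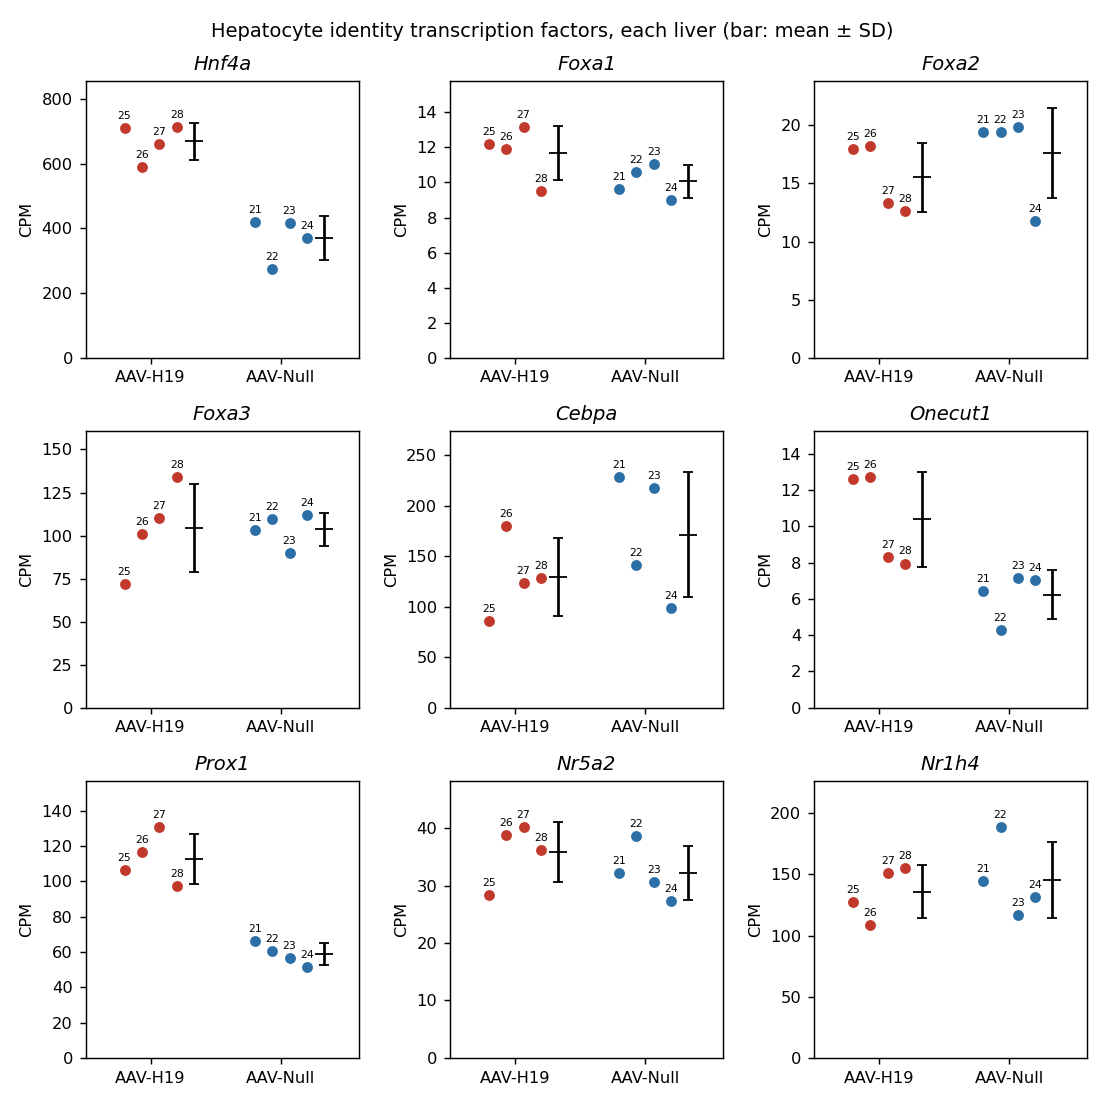
CPM of each factor in each liver (points, numbered by liver), with AAV-H19 left of AAV-Null and the mean ± SD of 4 livers beside each group. The groups are apart for Hnf4a, Prox1 and Onecut1 and overlap for the other 6 factors.

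Hnf4a (ENSMUSG00000017950), which encodes the nuclear receptor HNF4A, lies on the plus strand of chromosome 2 at 163506808 to 163572910 (GRCm38) and has 5 annotated transcripts. It was at 711, 590, 662 and 714 CPM in AAV-H19 livers 25 to 28, against 421, 275, 417 and 372 CPM in AAV-Null livers 21 to 24. The lowest AAV-H19 liver was thus above the highest AAV-Null liver, and AAV-Null 22 was the lowest of all 8. The log2 fold change was 0.85 ± 0.18 (SE, edgeR adjusted p = 0.0243), a 1.8-fold higher level. Without AAV-Null 22 it was 0.73 (edgeR adjusted p = 0.0134). The call was lost without AAV-H19 25, 26, 27 or 28, at edgeR adjusted p of 0.0806, 0.0597, 0.087 and 0.0573, while the log2 fold change was 0.82 to 0.91 in those 4 fits. The table counts the gene as a whole, so transcripts from its alternative promoters were not told apart.

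Prox1 (ENSMUSG00000010175), a homeobox factor of hepatocytes and of lymphatic endothelium, is a minus-strand gene of chromosome 1, 190118035 to 190170714. It was at 107, 117, 131 and 97.4 CPM in AAV-H19 livers 25 to 28 and at 66.2, 60.6, 56.4 and 51.8 CPM in AAV-Null livers 21 to 24. The groups were apart, with a coefficient of variation of 12.6% in AAV-H19 and 10.5% in AAV-Null. The log2 fold change was 0.94 ± 0.16 (SE, edgeR adjusted p = 0.0134), or 1.92-fold. Leaving out AAV-H19 27, the highest liver, gave 0.87 with an edgeR adjusted p of 0.0624, and the call held without any other single library.

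Because PROX1 also marks lymphatic vessels, 6 genes listed as markers of lymphatic endothelium were read beside it. In whole-liver RNA the levels of these genes need not come from lymphatic vessels, and their cell of origin was not tested. None of 6 passed the edgeR test, where 5.6% of all genes tested were called higher and 6.07% lower. At an unadjusted p under 0.05, a level that 29.8% of all genes tested reached in either direction, 2 were higher. DESeq2 and limma-voom called 0. Over all genes, DESeq2 called 1489 higher and 1923 lower of 25386, and limma-voom 1049 and 819 of 16672. The summed level of the 6 markers was 36.5 to 56.6 TPM in AAV-H19 livers, against 18.4 to 39.1 TPM in AAV-Null livers. The list's median log2 fold change was 0.39, and 4 of the 6 were above 0: Mmrn1 at 1.02, Reln at 0.54, Flt4 at 0.43 and Lyve1 at 0.34. With the length offset described later the median was -0.0033. Reln averaged 30.9 ± 6.46 CPM in AAV-H19 livers, against 21.3 ± 2.67 CPM in AAV-Null livers, with the groups apart, and Lyve1 52.8 ± 10.9 CPM, against 41.6 ± 12.01 CPM (SD, n = 4 each). Pdpn and Ccl21a, the 2 with negative fitted changes, were close to 0: Pdpn was at 0.121 ± 0.134 CPM in AAV-H19 livers, against 0.159 ± 0.117 CPM in AAV-Null livers, and Ccl21a at 0.683 ± 0.183 and 0.989 ± 0.298 CPM (SD, n = 4 each). In bulk liver RNA, a change in the number of cells of a type cannot be told apart from a change in RNA per cell. The summed level of the 10 hepatocyte markers was also higher, at 113775 to 132365 TPM in AAV-H19 against 89469 to 101433 TPM in AAV-Null. Albumin, the most abundant of them, was not called (log2 fold change 0.32 ± 0.17, SE, edgeR adjusted p = 0.23). Of the 10, edgeR called 1 higher and 1 lower. Their fitted changes were positive for 6 and negative for 4, with a median log2 fold change of 0.16. The part of these marker levels in the values of Hnf4a and Prox1 was not tested.

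Onecut1 (ENSMUSG00000043013), which encodes the cut-homeobox factor ONECUT1 (HNF6), lies on the plus strand of chromosome 9 at 74861921 to 74891781 and had the lowest level of the 9. It was at 12.6, 12.7, 8.31 and 7.95 CPM in AAV-H19 livers 25 to 28 and at 6.44, 4.3, 7.17 and 7.04 CPM in AAV-Null livers 21 to 24. The groups were apart, but AAV-H19 27 and 28 were close to AAV-Null 23 and 24. The log2 fold change of 0.74 ± 0.24 (SE) did not pass in edgeR (adjusted p = 0.0755) and passed in DESeq2 (log2 fold change 0.72, adjusted p = 0.0447). The annotated gene Gm20649 shares 2171 nt of exon with Onecut1 on the same strand but held at most 1 count unit in any library. With that gene added to Onecut1, the log2 fold change was 0.73 (edgeR adjusted p = 0.0755). With all genes linked by exon overlap on the same strand summed, the log2 fold change was 0.56 ± 0.22 (SE, edgeR adjusted p = 0.118).

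**Figure D2:**
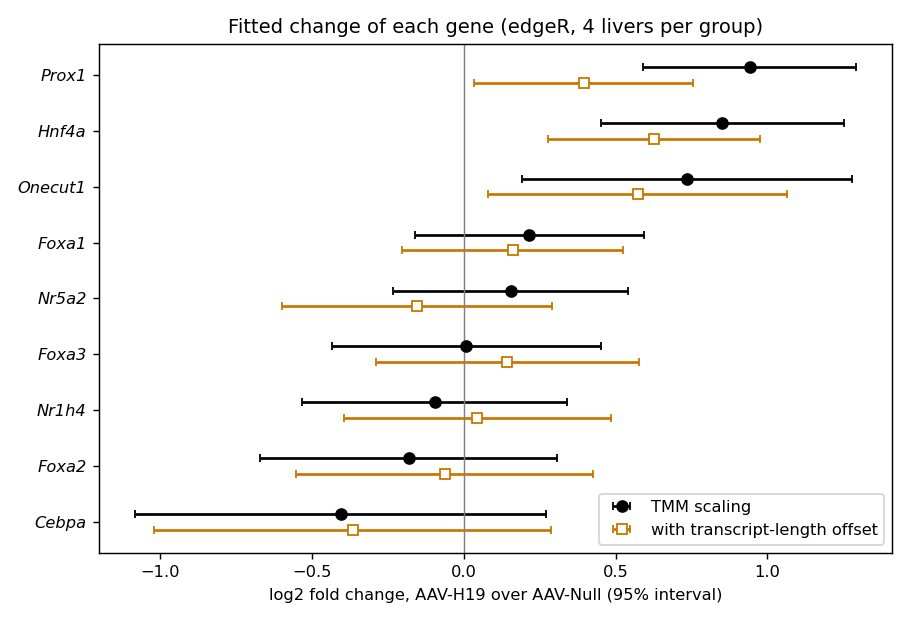
Fitted log2 fold change of each factor, AAV-H19 over AAV-Null, with 95% intervals (edgeR, 4 livers per group), under TMM scaling (filled circles) and with an offset for transcript length (open squares). The intervals of Prox1, Hnf4a and Onecut1 lie above 0 in both fits and those of the other 6 span 0.

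The FOXA paralogs encode winged-helix pioneer factors with closely related DNA-binding domains. All 3 genes are on the minus strand, Foxa1 on chromosome 12 (57540628 to 57546916), Foxa2 on chromosome 2 (148042877 to 148046969) and Foxa3 on chromosome 7 (19013284 to 19023538). Foxa3 was at 71.9, 101, 110 and 134 CPM in AAV-H19 livers 25 to 28 and at 103, 109, 90.0 and 112 CPM in AAV-Null livers 21 to 24. The AAV-H19 livers spread to both sides of the AAV-Null livers, and the log2 fold change was 0.01 ± 0.20 (SE, edgeR adjusted p = 0.982, 95% interval -0.43 to 0.45). Its sign turned in 10 of 20 alternative fits. Foxa1 was at 9.49 to 13.2 CPM in AAV-H19 livers, against 9.01 to 11.1 CPM in AAV-Null livers, with a 95% interval of the log2 fold change of -0.16 to 0.59. Foxa2 was at 17.9, 18.2, 13.3 and 12.7 CPM in AAV-H19 livers 25 to 28 and at 19.4, 19.4, 19.9 and 11.8 CPM in AAV-Null livers 21 to 24, so that AAV-Null 24 stood far below the other 3 of its group. Its 95% interval was -0.67 to 0.31, and without AAV-Null 24 its log2 fold change was -0.33.

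Per transcript length, Foxa3 supplied most of the family's RNA. Its share of the summed FOXA level was 81.6% ± 5.86 with AAV-H19, against 81.6% ± 3.84 with AAV-Null (SD, n = 4 each). Foxa2 supplied 12.3% ± 4.36 and 13.4% ± 3.26, and Foxa1 6.11% ± 1.67 and 5.09% ± 0.697, in AAV-H19 and AAV-Null. The summed level was 79.7 to 125 TPM in AAV-H19 livers, against 93.4 to 103 TPM in AAV-Null livers, so the groups overlapped. Foxa2 took the largest share in AAV-H19 25 (17.7%) and the smallest in AAV-H19 28 (7.97%), livers of the same group.

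Cebpa, the intronless gene of C/EBP alpha on the plus strand of chromosome 7 (35119293 to 35121928), had the lowest fitted log2 fold change of the 9, -0.41 ± 0.30 (SE, edgeR adjusted p = 0.405, 95% interval -1.08 to 0.27). It was at 85.6, 180, 124 and 128 CPM in AAV-H19 livers 25 to 28 and at 228, 141, 218 and 98.8 CPM in AAV-Null livers 21 to 24. Its coefficient of variation was the highest of the 9 factors in both groups, 30.0% in AAV-H19 and 36.1% in AAV-Null. Among AAV-Null livers, 21 and 23 were high and 22 and 24 low. The same 2 pairs differed in the length trend of the whole library, with rank correlations of -0.104 and -0.144 in AAV-Null 21 and 23 and of -0.384 and -0.382 in AAV-Null 22 and 24. With the length offset described later, the log2 fold change of Cebpa was -0.37 ± 0.29 (SE, edgeR adjusted p = 0.494).

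The nuclear receptor genes Nr5a2 (chromosome 1, 136842571 to 136960448) and Nr1h4 (chromosome 10, 89454234 to 89533585), both on the minus strand, had overlapping groups. Nr5a2, which encodes LRH-1, was at 28.3 to 40.1 CPM in AAV-H19 livers, against 27.3 to 38.7 CPM in AAV-Null livers (log2 fold change 0.16 ± 0.17, SE, edgeR adjusted p = 0.588, 95% interval -0.23 to 0.54). Nr1h4, which encodes the bile acid sensor FXR, was at 128, 109, 151 and 155 CPM in AAV-H19 livers 25 to 28 and at 145, 188, 117 and 131 CPM in AAV-Null livers 21 to 24. Its log2 fold change was -0.10 ± 0.20 (SE, edgeR adjusted p = 0.778, 95% interval -0.53 to 0.34). AAV-Null 22 was the highest of the 8 livers for Nr1h4 and the lowest for Hnf4a and Onecut1.

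Levels were compared between genes as TPM. In AAV-H19 livers Hnf4a led at 267 ± 12.4 TPM (SD, n = 4), followed by Nr1h4 at 117 ± 17.5, Foxa3 at 89.3 ± 21.6 and Cebpa at 86.7 ± 29.4 TPM. Prox1 came next at 24.96 ± 4.16 TPM, then Nr5a2 at 13.3 ± 2.43, Foxa2 at 12.8 ± 2.64, Foxa1 at 6.41 ± 1.05 and Onecut1 at 4.59 ± 1.22 TPM. In AAV-Null livers Hnf4a was at 139 ± 36.3 TPM, Nr1h4 at 115 ± 13.4, Cebpa at 107 ± 45.4 and Foxa3 at 81.5 ± 4.94 TPM. The lower group there was Foxa2 at 13.4 ± 3.43, Prox1 at 11.9 ± 1.58, Nr5a2 at 10.9 ± 1.15, Foxa1 at 5.09 ± 0.786 and Onecut1 at 2.57 ± 0.736 TPM.

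Hnf4a ranked first in 7 of 8 livers, the exception being AAV-Null 22, where Nr1h4 did, and Foxa1 and Onecut1 ranked eighth and ninth in all 8. In AAV-H19 livers the lowest Hnf4a value, 248 TPM, was above the highest of any other factor, the 135 TPM of Nr1h4. In AAV-Null livers Hnf4a, at 89.1 to 172 TPM, overlapped Nr1h4, at 104 to 132 TPM, and Cebpa, at 59.9 to 149 TPM. Prox1 too was apart from its neighbours only in AAV-H19. At 20.6 to 29.7 TPM there, it lay above every value of Foxa2 (9.93 to 15.7 TPM) and Nr5a2 (10.03 to 15.3 TPM). In AAV-Null, at 10.4 to 13.7 TPM, it overlapped Foxa2 (8.81 to 16.8 TPM) and Nr5a2 (9.19 to 11.7 TPM). TPM does not take out the length trend of each library. With the length offset described later, the log2 fold changes of Hnf4a and Prox1 were 0.63 and 0.39 (edgeR adjusted p of 0.064 and 0.189). Within the upper group, Nr1h4, Foxa3 and Cebpa did not differ beyond their spread in AAV-H19.

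**Figure D3:**
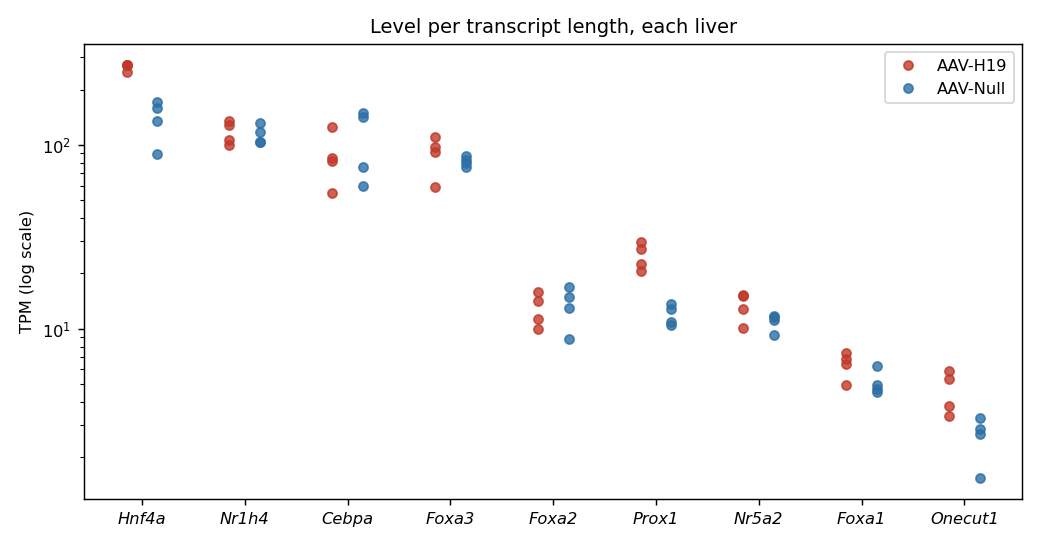
TPM of each factor in each liver on a log scale, AAV-H19 (red) left of AAV-Null (blue), with genes ordered by their mean in AAV-Null. Hnf4a and Prox1 in AAV-H19 stand clear of the factors that they overlap in AAV-Null. TPM does not take out the length trend of each library.

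The changes were read against transcript length because of the trend across the table. The protein-coding genes tested were divided into 5 classes of nearly equal size by the length of the longest annotated transcript. In class 2, 1941 to 2882 nt, which holds Nr1h4, Foxa3, Foxa2 and Cebpa, the median log2 fold change was -0.12 and 1.51% of genes were called higher. In class 4, 3864 to 5206 nt, with Onecut1, Hnf4a and Nr5a2, the median was 0.20 and 8.13% were called higher. In class 5, from 5208 nt, with Prox1 at 7913 nt, the median was 0.45 and 17.9% were called higher.

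An offset that removed the length trend within each library left no factor called, while 1.41% of all genes tested were called higher and 0.804% lower. The trend was positive in every AAV-H19 library and negative in every AAV-Null library. A length trend of the libraries and a group difference that follows length cannot be told apart here, and the offset takes out both. Hnf4a, at 4362 nt, had a log2 fold change of 0.63 ± 0.16 (SE, edgeR adjusted p = 0.064, unadjusted p = 0.00251). Prox1 had a log2 fold change of 0.39 ± 0.16 in that fit (SE, edgeR adjusted p = 0.189, unadjusted p = 0.035), against 0.94 without the offset. Onecut1 was at 0.57 ± 0.22 (edgeR adjusted p = 0.166, unadjusted p = 0.0269). The fitted change was positive for 6 of the 9 here too, as for 45.9% of all genes tested. These 3 were the factors at an unadjusted p under 0.05 with the offset, as they were without it. The log2 fold change of Nr5a2 turned from positive to negative with the offset (-0.15) and that of Nr1h4 from negative to positive (0.04), neither past the test.

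**Figure D4:**
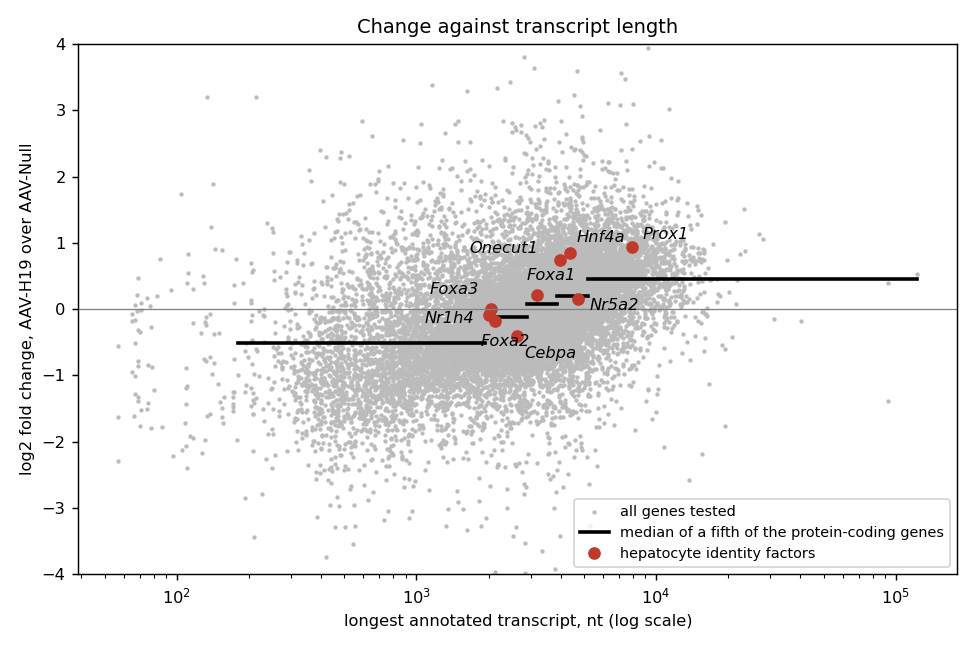
Log2 fold change (AAV-H19 over AAV-Null) against the length of the longest annotated transcript on a log scale, for all genes tested (grey), the 9 factors (red) and the median of each length class of protein-coding genes (black lines). The medians run from -0.51 in the shortest class to 0.45 in the longest, and 20 genes lie outside the plotted range.

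Hnf4a and Prox1 each have an annotated RNA gene on the opposite strand. Hnf4aos was at 6.0, 4.84, 5.59 and 6.66 CPM in AAV-H19 livers 25 to 28 and at 8.27, 23.3, 8.03 and 7.08 CPM in AAV-Null livers 21 to 24. Every AAV-H19 liver was thus below every AAV-Null liver, the reverse of Hnf4a, and AAV-Null 22, the lowest liver for Hnf4a, was the highest for Hnf4aos. The log2 fold change of -1.01 ± 0.38 (SE) did not pass in edgeR (adjusted p = 0.103) and passed in DESeq2 (-1.05, adjusted p = 0.0403). With the length offset it was -0.41, the transcript being 839 nt long. Prox1os, which overlaps 133 nt of Prox1 exon, was at 3.47 to 4.42 CPM in AAV-H19 livers, against 3.81 to 11.6 CPM in AAV-Null livers, again highest in AAV-Null 22 (log2 fold change -0.81 ± 0.32, SE, edgeR adjusted p = 0.122). Without AAV-Null 22 the log2 fold change was -0.43 for Hnf4aos and -0.43 for Prox1os, with edgeR adjusted p of 0.133 and 0.244. The kit keeps strand, but the strand setting of the counting is not known here, so reads of these gene pairs may be shared. With genes overlapping its exons on either strand summed in, Prox1 had a log2 fold change of 0.83 (edgeR adjusted p = 0.0194). Hnf4a shares no exon with Hnf4aos, and Gm45091, opposite Cebpa with 51 nt of shared exon, was at 0.38 ± 0.0912 CPM in AAV-H19 livers, against 0.659 ± 0.209 CPM in AAV-Null livers (SD, n = 4 each).

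**Figure D5:**
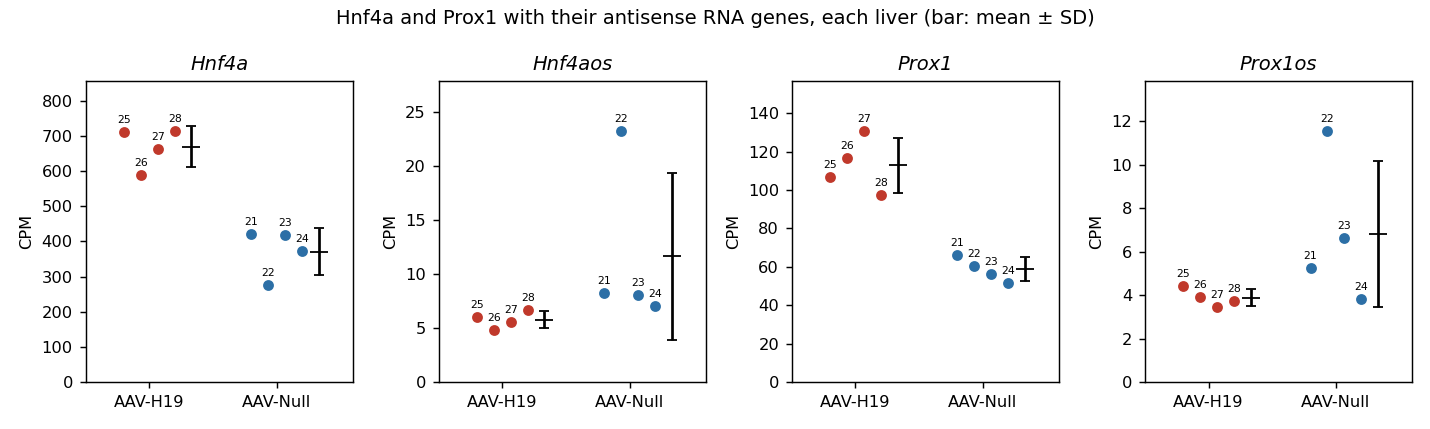
CPM of Hnf4a, Hnf4aos, Prox1 and Prox1os in each liver (points, numbered by liver), AAV-H19 left of AAV-Null, with the mean ± SD of 4 livers. AAV-Null 22 is highest for both antisense genes and lowest for Hnf4a.

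Promoter sequence was read because these factors are known to bind one another's genes. All 9 factors have start sites in the RefSeq promoter table (GRCm38.p6), 14 in all, and 5 motifs were searched on both strands of the 250 bases before each start. The letters of a FOXA motif (TGTTTAC) stood in 3.17% of all 32851 promoter windows and in 1 of the 14, that of Foxa1. A C/EBP motif (TTNNGCAA, in 9.56% of windows) stood in 1 window of Nr5a2. An ONECUT motif (ATNGATT, 6.65%) stood in 1 window each of Hnf4a and Foxa2. HNF4A (CAAAGNNCA, 5.49%) and NR5A2 (CAAGGNCA, 5.53%) motifs matched none of the 14, which says only that these letters are not in these windows. A match is a description of the letters, not a binding site. Shown are windows of the 2 factors that passed the test and of 2 others with a match, 5′ to 3′ on the gene's strand, with matched letters in capitals and bases inside annotated exons left out. The Hnf4a window is chr2:163506607-163506807 (plus strand), with the ONECUT letters 60 to 54 bases before the start, read on the opposite strand. The Prox1 window is chr1:190170828-190171077 (minus strand) and holds no match. The Nr5a2 window is chr1:136953631-136953880 (minus strand), with the C/EBP letters 243 to 236 bases before the start. The Foxa1 window is chr12:57546122-57546361 (minus strand), with the FOXA letters 141 to 135 bases before the start, read on the opposite strand.
Hnf4a: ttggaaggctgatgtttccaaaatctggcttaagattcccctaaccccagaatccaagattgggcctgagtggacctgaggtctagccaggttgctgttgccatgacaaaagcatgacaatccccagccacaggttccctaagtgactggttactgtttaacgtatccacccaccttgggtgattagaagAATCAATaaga
Prox1: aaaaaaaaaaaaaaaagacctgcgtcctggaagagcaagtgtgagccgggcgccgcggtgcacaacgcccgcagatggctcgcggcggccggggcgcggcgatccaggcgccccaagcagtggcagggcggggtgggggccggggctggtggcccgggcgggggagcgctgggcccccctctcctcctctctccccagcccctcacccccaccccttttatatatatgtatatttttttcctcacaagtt
Nr5a2: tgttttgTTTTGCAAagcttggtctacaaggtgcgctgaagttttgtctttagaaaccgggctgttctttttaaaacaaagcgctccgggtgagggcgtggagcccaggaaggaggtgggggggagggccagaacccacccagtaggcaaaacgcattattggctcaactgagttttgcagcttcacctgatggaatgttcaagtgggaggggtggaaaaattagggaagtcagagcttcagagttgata
Foxa1: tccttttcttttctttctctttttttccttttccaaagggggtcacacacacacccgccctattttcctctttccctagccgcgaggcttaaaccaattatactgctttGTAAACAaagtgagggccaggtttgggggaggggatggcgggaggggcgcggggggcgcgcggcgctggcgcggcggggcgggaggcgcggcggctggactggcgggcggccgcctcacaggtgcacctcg

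Other transcription factors of the liver network were read as a list of 30 genes. Of these, 5 rose, none fell by edgeR and 25 did not pass, where 5.6% of all genes tested were called higher and 6.07% lower. At an unadjusted p under 0.05, a level that 29.8% of all genes tested reached in either direction, 9 were higher and 3 lower. DESeq2 called 8 higher and 2 lower, against 1489 and 1923 of 25386 over all genes. In limma-voom 6 were higher and 0 lower, against 1049 and 819 of 16672. The median log2 fold change was 0.28, and 0.13 with the length offset, against -0.02 and -0.05 for all genes tested. Nfix and Nfia, nuclear factor I genes, rose with log2 fold changes of 2.20 ± 0.36 and 1.82 ± 0.34 (SE, edgeR adjusted p of 0.013 and 0.0174). Nfib, another nuclear factor I gene of the list, named after its value was seen, had a negative fitted change. It was -0.42 ± 0.24 (SE, edgeR adjusted p = 0.26), and -1.01 with the length offset (edgeR adjusted p = 0.086). Nfix was at 9.07 to 21.7 CPM in AAV-H19 livers, against 1.67 to 4.42 CPM in AAV-Null livers, and it was the only one of the 30 called with the offset (log2 fold change 1.84, edgeR adjusted p = 0.0209). Foxo1, a forkhead factor of insulin signalling, and Ppara, the fatty acid receptor, rose with log2 fold changes of 1.05 ± 0.25 and 1.23 ± 0.24 (SE; edgeR adjusted p of 0.0329 and 0.0212). The fifth was Rora, a nuclear receptor of the clock and of lipid metabolism, named after its value was seen, at 0.84 ± 0.21 (SE, edgeR adjusted p = 0.0367). Nfix kept its call whichever library was left out, and the other 4 lost theirs in at least 3 of 8 such fits, with the highest edgeR adjusted p at 0.0671 to 0.12, each without AAV-H19 27.

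Nr0b2, named after its values were seen, stands in this list and in lists of targets below as well. Nr0b2 encodes SHP, the repressor that FXR induces and that holds down LRH-1 and HNF4A. It was at 6.37 to 8.07 CPM in AAV-H19 livers and at 18.1, 25.7, 14.4 and 5.41 CPM in AAV-Null livers 21 to 24, so that AAV-Null 24 lay below every AAV-H19 liver and the other 3 above. Its log2 fold change was -1.16 ± 0.38 (SE, edgeR adjusted p = 0.0755).

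Among 16 known HNF4A targets none rose and 2 fell by edgeR, against 5.6% and 6.07% of all genes tested. At an unadjusted p under 0.05, a level that 29.8% of all genes tested reached in either direction, 3 were higher and 4 lower. DESeq2 called 2 higher and 3 lower, and limma-voom 1 and 2, beside the all-gene counts given above. Apoc3, the apolipoprotein that slows triglyceride clearance, fell to 1815 to 2398 CPM in AAV-H19 livers, against 2619 to 4311 CPM in AAV-Null livers (log2 fold change -0.83 ± 0.20, SE, edgeR adjusted p = 0.0318). Its call was lost in 5 of the 8 fits without 1 library, with an edgeR adjusted p of up to 0.111, without AAV-H19 27. The list's median log2 fold change was -0.10, and 0.11 with the length offset, under which none of the 16 passed; the Apoc3 transcript is 709 nt long and its log2 fold change was then -0.25.

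Of 14 FOXA and C/EBP alpha targets, Cps1 and Ahsg rose and 12 did not pass, where 5.6% of all genes tested were called higher. At an unadjusted p under 0.05, a level that 29.8% of all genes tested reached in either direction, 6 were higher. DESeq2 called 4 higher and limma-voom 2, beside the all-gene counts given above. None was lower in edgeR, at an unadjusted p under 0.05 or in DESeq2 or limma-voom. Cps1, the first enzyme of the urea cycle, was at 4901 to 7117 CPM in AAV-H19 livers, against 1804 to 3011 CPM in AAV-Null livers (log2 fold change 1.38 ± 0.22, SE, edgeR adjusted p = 0.0102). Ahsg, which encodes fetuin-A, was at 8158 to 8897 CPM in AAV-H19 livers, against 5175 to 6336 CPM in AAV-Null livers (0.53 ± 0.15, SE, edgeR adjusted p = 0.0465). The median log2 fold change was 0.59, and 0.69 with the length offset, under which Ahsg passed (0.82, edgeR adjusted p = 0.0367) and Cps1 did not (0.95, edgeR adjusted p = 0.0873). Without AAV-H19 27 neither passed, at edgeR adjusted p of 0.0513 for Cps1 and 0.136 for Ahsg. Ahsg lost its call in 7 of the 8 fits without 1 library and kept it without AAV-Null 22. The Ahsg call was also lost with DESeq2 size factors (edgeR adjusted p = 0.0542), upper-quartile factors (0.0858) and no filter on low counts (0.0771).

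None of 7 LRH-1 targets and none of 12 FXR targets passed in edgeR, where 5.6% of all genes tested were called higher and 6.07% lower. Lists of 7 and 12 genes are too short for no call to stand out from those shares. At an unadjusted p under 0.05, a level that 29.8% of all genes tested reached in either direction, 2 LRH-1 targets were higher and 2 lower. Among the FXR targets 1 was higher and 2 lower at that level. DESeq2 called 1 LRH-1 target and 2 FXR targets lower, and limma-voom 0 and 1, beside the all-gene counts given above. The median log2 fold changes were 0.03 and -0.27. Of 9 tested markers of bile duct and progenitor cells, Sox9 rose and Krt23 fell, beside the same 5.6% and 6.07% of all genes tested. Their log2 fold changes were 1.27 ± 0.27 and -2.25 ± 0.48 (SE, edgeR adjusted p = 0.0246 for both). Sox9 lost its call without AAV-H19 25 or 27 (edgeR adjusted p = 0.07 and 0.0845) and Krt23 without AAV-H19 25, 26 or 27 (0.0806, 0.063 and 0.0784). With the length offset neither passed, at 1.06 for Sox9 (edgeR adjusted p = 0.0604) and -1.98 for Krt23 (edgeR adjusted p = 0.0518). Both passed with the length and GC offset, at edgeR adjusted p of 0.0481 for Sox9 and 0.0408 for Krt23. Of 10 fetal liver genes, 4 passed the filter on low counts and none was called by edgeR, beside the same shares of all genes tested. Among these 4, 1 was higher at an unadjusted p under 0.05 and in DESeq2, and 0 in limma-voom. The fitted change was positive for 3 of these 4, and their median log2 fold change was 0.51, and 0.65 with the length offset. The other was Afp, the fetal counterpart of albumin, at 2.60 ± 0.669 CPM in AAV-H19 livers, against 3.97 ± 1.22 CPM in AAV-Null livers (SD, n = 4 each).

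The gene whose profile over the 8 libraries lay nearest to each factor was found by the root mean square difference of centred log2 CPM among the protein-coding genes tested. It was Rnf41 for Hnf4a (0.0888 log2 units), Slf2 for Prox1 (0.066), Copg1 for Onecut1 (0.138), Abcf1 for Foxa1 (0.0721), Rad50 for Foxa2 (0.121), Rpusd4 for Foxa3 (0.085), Fam20c for Cebpa (0.14), Ppp2r5e for Nr5a2 (0.0598) and S100pbp for Nr1h4 (0.0965). The 9 factors themselves were not among the candidates, and none of the 9 nearest genes is in the lists read here.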

How the data were processed

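Poly(A) RNA of 8 livers was sequenced from stranded TruSeq libraries, per the labels' protocols. HISAT and StringTie are named, per the submitters' processing notes; the sources used here do not give their versions, roles, genome build, annotation or counting settings. The table deposited by the authors gives an estimated count per gene and liver, in whole numbers and not normalized as far as the values show. Low values piled up at 4 (820 to 990 genes per library at 4, against 226 to 285 at 3 and 124 to 164 at 5), so a unit may not be a read, and the units may overstate the precision. The 9 factors held 304 to 53051 units per library.

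All 55450 identifiers matched GENCODE M21 (GRCm38), the source of positions and lengths; the authors' build may differ. The labels number each liver and say nothing of litters or batches, so a p-value reflects only the spread between these livers, which may be technical. The closest 2 libraries had a chi-square of 27.8 per degree of freedom, so none was a copy. filterByExpr of edgeR 4.0.16 (minimum count 10, minimum total 15) left 16672 genes; removed genes held 0.0454% of counts. After TMM scaling, edgeR's quasi-likelihood test (robust, no covariates, R 4.3.3) was run on all genes with Benjamini-Hochberg adjustment, at a threshold of 0.05; an SE is the log2 fold change over the square root of F. The common biological coefficient of variation was 0.389. TPM used the longest annotated transcript. The length offset took out each library's trend of log2 CPM (prior count 2) against transcript length by a natural spline with 5 degrees of freedom. The scripts were tested on simulated counts.

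The factors, lists and alternatives were chosen with earlier results of these data known; the 5 motifs, and the alternatives for the lists and other named genes, were chosen after the values were seen. Genes named are the 9 factors, H19, genes overlapping a factor, the nearest protein-coding profile of each factor, and up to 4 called members of each list by smallest p; others are marked, and some list members are not reported here. DESeq2 1.42.0 and limma 3.58.1 (limma-voom) were alternatives.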

Additional observations from a re-analysis of the deposited data

Results flagged for a closer look

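Among 20 groups of 4 livers examined (the 9 factors and H19 in each group), 1 held a liver that stood apart, about what chance gives (1 in 20). Foxa2 was at 11.8 CPM in AAV-Null 24, far below the 19.4 to 19.9 CPM of the other 3 AAV-Null livers. AAV-Null 24 was also the lowest of its group for Cebpa, Foxa1, Prox1 and Nr5a2. It was the highest of its group for Foxa3 and in between for Hnf4a, Onecut1 and Nr1h4. Without it the log2 fold change of Foxa2 was -0.33 (edgeR adjusted p = 0.29).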

How the results depend on the processing

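Over 20 alternative fits the log2 fold change was 0.56 to 0.91 for Hnf4a (past the test in 14), 0.39 to 1.01 for Prox1 (past in 17) and 0.53 to 0.85 for Onecut1 (past in 1, DESeq2). The count of factors called higher, 2, was 0 with the length offset and 0 with the length and GC offset, and 0 to 2 without 1 library; none was called lower in any fit run. The fold change of Foxa3 turned negative with DESeq2 size factors (-0.018), upper-quartile factors (-0.10), a filter of 1 CPM in 4 samples (-0.026), DESeq2 (-0.019), limma-voom (-0.022), values divided by 4 (-0.0073), and without AAV-H19 27 (-0.016), AAV-H19 28 (-0.13), AAV-Null 21 (-0.000953) or AAV-Null 23 (-0.065); without 1 library it ran from -0.13 to 0.15. With the length offset and with the length and GC offset, the values were -0.15 and -0.066 for Nr5a2, 0.044 and 0.055 for Nr1h4, 0.16 and 0.12 for Rpusd4 and -0.21 and -0.18 for Ppp2r5e, all turned in sign. Without 1 library, Nr1h4 ran from -0.20 to 0.051 (positive without AAV-Null 22), Rpusd4 from -0.14 to 0.078 (positive without AAV-H19 25, and 0.04 without AAV-Null 24) and Rad50 from -0.24 to 0.043 (positive without AAV-Null 23).

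Over all genes, the 934 higher and 1012 lower were 235 and 134 with the length offset, 415 and 318 with the length and GC offset, 1489 and 1923 in DESeq2, and 1694 and 1885 at an adjusted p threshold of 0.1. Upper-quartile scaling moved the median log2 fold change of all genes to -0.13 and gave 656 higher and 1557 lower, 29.6% higher against 48% with TMM; the offset gave 63.7% higher. Without 1 library there were 86 to 1023 higher and 27 to 1050 lower. Where no value shows a cause, the cause was not tested. No paired analysis was possible because the 2 groups share no replicate number. TPM from merged exon lengths left Hnf4a first, and Foxa1 and Onecut1 last, in both group means, but put Foxa2 before Nr5a2 in AAV-H19 and Cebpa before Nr1h4 in AAV-Null.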
